A study of Mus musculus with 6 samples.

Results

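The interleukin 1 family and its receptors, 10 genes in all, were followed in 4T1 mammary tumours. They are 4 ligands (Il1a, Il1b, Il18 and Il33), 2 secreted antagonists (Il1rn and Il18bp) and 4 receptors (Il1r1, the decoy Il1r2, Il18r1 and Il1rl1). The genes were picked by symbol, and all 10 had a row among the 23381 rows of the table. They were picked with earlier results of the drug comparison known, so the differences between drug and vehicle are given as descriptions and support nothing. The 6 tumours grew in Balb/c mice 10 weeks old, from 500000 cells of 4T1, a mouse mammary carcinoma line of the same strain, placed in the inguinal mammary fat pad. Once tumours were established, 3 were treated with DMSO, the vehicle, and 3 with Vismodegib, a Smoothened inhibitor, at 2 mg per mouse, 3 times a week for 3 weeks. Whole tumours were sequenced, so each value sums over cancer cells, immune cells and stroma. The labels do not state that each library came from its own mouse, and the spread between libraries may be in part technical.

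Interleukin 1 family ligands are cytokines of innate immunity. Interleukin 1 alpha and interleukin 33 are held inside epithelial, endothelial and stromal cells and are released when those cells are damaged. Interleukin 1 beta and interleukin 18 are made as inactive precursors, largely by myeloid cells and, for interleukin 18, also by epithelia, and are cut to their active forms by caspase 1 in inflammasomes. Each ligand binds a receptor chain that recruits an accessory chain and signals through Myd88 and the kinases of the Irak family to NF-kappaB. Tumours of this line are known for a strong myeloid infiltrate.

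Depth was 34800000 to 40500000 reads in the DMSO libraries and 41600000 to 58000000 in the Vismodegib libraries, recovered from the steps of the values, so that depth did not overlap between the groups. Values are in RPKM, reads scaled to the gene's length and to the library's total, which makes levels comparable between genes. The labelled tissue was matched by its markers, with none of 9 epithelial markers at 0 in any library and a summed level, most of it Krt8 and Krt18, of 1644 to 2784 RPKM. Their differences between the groups are given with the other cell types. No gene of 11818 tested passed limma (Benjamini-Hochberg adjusted p under 0.05), and 266 had an unadjusted p under 0.05, 229 higher and 37 lower with Vismodegib.

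The members lie in a few places of the genome (mm10, GENCODE M21). All 4 receptor genes, with Il1rl2 and Il18rap, sit head to tail on the plus strand in a stretch of 478 kb of chromosome 1, from 40074079 to 40551705. Il1rl1 ends only 136 bases before Il18r1 starts. Il1a (129299610 to 129309972) and Il1b (129364570 to 129371139) lie side by side on the minus strand of chromosome 2, and Il1rn (24336853 to 24351494) lies apart from them on the plus strand. Il18 is on chromosome 9, Il18bp on chromosome 7 and Il33 on chromosome 19. The sequences around the start sites of 4 members are shown because these are the most abundant member (Il1b), the widest ranging ones (Il33 and Il1a) and the one whose groups did not overlap (Il18r1). They run 5′ to 3′ from 250 bases before the RefSeq start to 50 bases after it (GRCm38.p6). Capitals mark TATAAA read on the gene's own strand, the AP-1 motif TGANTCA and the ETS and PU.1 core GAGGAA on either strand.
Il1b, chr2:129371090-129371389, minus strand: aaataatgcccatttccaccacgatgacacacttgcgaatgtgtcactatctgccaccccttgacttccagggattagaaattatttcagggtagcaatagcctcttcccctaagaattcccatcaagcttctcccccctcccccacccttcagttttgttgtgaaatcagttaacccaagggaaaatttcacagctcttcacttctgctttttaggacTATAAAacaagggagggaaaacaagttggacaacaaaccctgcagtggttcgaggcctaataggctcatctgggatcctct
Il1a, chr2:129309923-129310222, minus strand: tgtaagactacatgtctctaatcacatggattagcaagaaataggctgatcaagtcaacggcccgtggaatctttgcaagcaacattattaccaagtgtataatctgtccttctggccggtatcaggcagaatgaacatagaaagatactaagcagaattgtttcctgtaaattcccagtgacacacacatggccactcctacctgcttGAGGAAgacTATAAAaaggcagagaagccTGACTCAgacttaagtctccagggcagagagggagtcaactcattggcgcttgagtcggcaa
Il33, second start, chr19:29945540-29945839, plus strand: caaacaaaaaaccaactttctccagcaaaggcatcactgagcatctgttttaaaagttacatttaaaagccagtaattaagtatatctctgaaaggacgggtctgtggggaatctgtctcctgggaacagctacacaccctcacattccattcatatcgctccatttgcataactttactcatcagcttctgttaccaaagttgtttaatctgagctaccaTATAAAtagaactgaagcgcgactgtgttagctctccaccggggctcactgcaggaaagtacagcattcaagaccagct
Il18r1, first start, chr1:40465302-40465601, plus strand: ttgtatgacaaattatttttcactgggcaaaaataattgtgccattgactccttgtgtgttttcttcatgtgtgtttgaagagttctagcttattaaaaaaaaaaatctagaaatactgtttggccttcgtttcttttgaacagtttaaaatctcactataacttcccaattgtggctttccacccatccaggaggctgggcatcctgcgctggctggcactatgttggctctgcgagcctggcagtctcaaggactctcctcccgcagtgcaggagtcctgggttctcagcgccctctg

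All 10 members had at least 1 such window, 17 in all. TATAAA was found in 4 of these 17 windows (23.5%), 1 each of Il1a and Il1b and both of Il33, against 8.32% of 32851 mouse windows. Windows of 1 gene can overlap and are not independent. In Il1b it began 31 bases and in Il1a 32 bases before the start. TGANTCA was found in 2 windows, of Il1a and Il1rn (11.8%, against 7.81% of all windows), and GAGGAA in 4, 1 each of Il1a, Il1rl1, Il18r1 and Il33 (23.5%, against 28.3%). The NF-kappaB consensus was found in 1 window, of Il1r1 (5.88%, against 8.46%), the cyclic AMP response element TGACGTCA in none (1.79%), and the Gli motif GACCACCCA, which the transcription factors at the end of the Hedgehog pathway bind, in none (0.253%). These are matches of letters in short windows and not measured binding.

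Il1b was the most abundant member. Its mean over the 6 libraries was 21.1 RPKM, and its lowest library, at 10.4 RPKM, lay above the highest library of every other member (9.54 RPKM, in Il1a). Il18bp (mean 6.36 RPKM), Il18 (5.71 RPKM) and Il1rn (5.23 RPKM) came next, with ranges that overlapped. Il1a (3.49 RPKM), Il1r2 (2.72 RPKM), Il33 and Il18r1 (2.10 RPKM) followed, also with overlapping ranges. Il1r1, the receptor chain that binds both forms of interleukin 1, had a mean of 1.15 RPKM. Il1rl1 was the lowest, at 0.276 RPKM, and was the 1 member below the mean of 0.5 RPKM required for the test. The other 9 were tested.

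**Figure D1:**
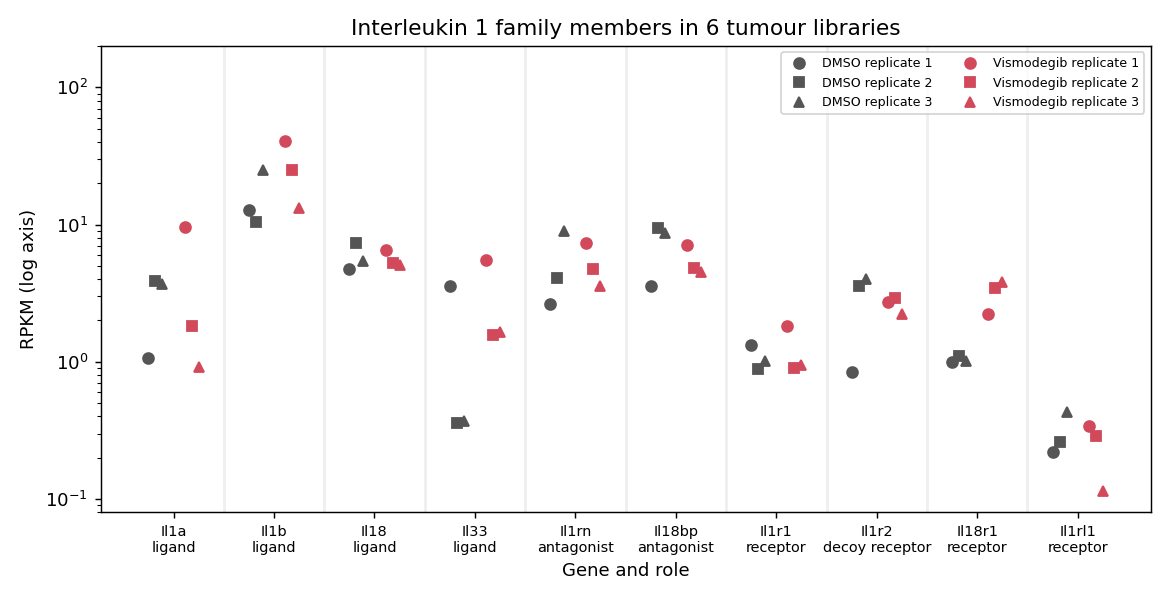
RPKM (log axis) of the 10 members, grouped by role, in 3 DMSO libraries (grey) and 3 Vismodegib libraries (red), 1 symbol per library and no error bars. Il18r1 is the member in which all red symbols lie above all grey ones (2.23 to 3.79 against 0.998 to 1.10 RPKM).

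Among the ligands, Il1b and Il33 had the larger differences and Il18 was nearly level. Il1b measured 12.9, 10.4 and 25.2 RPKM with vehicle and 40.3, 25.0 and 13.1 RPKM with the drug, each time in the order of replicates 1, 2 and 3. The groups overlapped, and Vismodegib replicate 1 was the highest library. The group levels were 16.2 ± 7.89 and 26.1 ± 13.6 RPKM (mean ± SD, n = 3 each), a difference of 0.64 on the log2(RPKM + 0.5) scale (SE 0.458, 95% interval -0.40 to 1.68). Here and below, more cells that make a transcript and more transcript per cell cannot be told apart.

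Il33, the ligand of Il1rl1, varied most between libraries, with a highest value 15.5 times the lowest. It measured 3.55, 0.358 and 0.368 RPKM with vehicle and 5.56, 1.57 and 1.64 RPKM with the drug. Within each group replicate 1 stood apart as high, and DMSO replicate 1 lay above 2 of the treated libraries. The difference was 1.05 (SE 0.652, 95% interval -0.43 to 2.53). Leaving out DMSO replicate 1 gave 1.79, and leaving out Vismodegib replicate 1 gave 0.54. The lowest value rests on about 32 reads.

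Il1a measured 1.07, 3.90 and 3.68 RPKM with vehicle and 9.54, 1.81 and 0.917 RPKM with the drug. Vismodegib held both the highest and the lowest library, 10.4-fold apart, and the difference of 0.06 had an interval from -1.53 to 1.66. Without Vismodegib replicate 1 it was -0.76. Il18, which drives interferon gamma in T and NK cells together with interleukin 12, was the steadiest member. It measured 4.71, 7.32 and 5.39 RPKM with vehicle and 6.55, 5.27 and 5.03 RPKM with the drug, a difference of -0.03 (95% interval -0.63 to 0.57). Its highest library was 1.55 times its lowest.

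In both antagonists the groups overlapped. Il1rn, which occupies Il1r1 without signalling, measured 2.63, 4.11 and 8.96 RPKM with vehicle and 7.36, 4.74 and 3.58 RPKM with the drug. DMSO held the lowest and the highest library, and the difference was 0.10 (95% interval -0.88 to 1.08). Il18bp, a secreted protein that captures interleukin 18 and is induced by interferon gamma, measured 3.56, 9.39 and 8.73 RPKM with vehicle and 7.15, 4.82 and 4.51 RPKM with the drug. DMSO replicates 2 and 3 lay above all treated libraries and replicate 1 below them. The difference was -0.29 (95% interval -1.16 to 0.58), and -0.70 without DMSO replicate 1. Of the Il18bp exon bases, 2.64% are shared with Numa1 on the other strand, which was at 15.8 to 32.5 RPKM, and whether the counting used strand is not given in the sources used here.

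Il18r1, the chain that binds interleukin 18, was the 1 member of the 9 tested whose groups did not overlap. Among all genes tested, 5.03% did not overlap, and 4.29% did not overlap with Vismodegib higher. Because the member was known to be high when the genes were picked, nothing is read from this count. Il18r1 measured 0.998, 1.10 and 1.01 RPKM with vehicle and 2.23, 3.46 and 3.79 RPKM with the drug. The vehicle libraries were nearly alike, and the lowest treated library was at about 2 times the highest of them. Group levels were 1.03 ± 0.053 and 3.16 ± 0.819 RPKM, a log2 difference of 1.23 (SE 0.265, 95% interval 0.63 to 1.83) or 2.34-fold on that scale. It did not pass limma over all genes (adjusted p = 1 after rounding). Its difference lay between 1.01 and 1.49 in 16 alternative fits. It passed in 1 of them, with library weights (limma, adjusted p = 0.015), where 420 of the 11818 genes (3.55%) passed. Those weights gave 7.28 to DMSO replicate 3, and their estimation stopped before it converged. The values rest on about 156 to 913 reads.

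In the other receptors the groups overlapped. Il1r1 measured 1.33, 0.884 and 1.01 RPKM with vehicle and 1.83, 0.909 and 0.946 RPKM with the drug, with replicate 1 highest in both groups and a difference of 0.10 (95% interval -0.55 to 0.76). Il1r2, the decoy that binds interleukin 1 without signalling and is made by neutrophils among other cells, measured 0.840, 3.60 and 4.04 RPKM with vehicle and 2.71, 2.91 and 2.24 RPKM with the drug. The treated libraries lay inside the range of the controls, whose replicate 1 was low. The difference was 0.09 (95% interval -0.93 to 1.11) and -0.47 without DMSO replicate 1. Il1rl1, the interleukin 33 receptor of mast cells, regulatory T cells and type 2 lymphoid cells, measured 0.221, 0.262 and 0.434 RPKM with vehicle and 0.338, 0.289 and 0.115 RPKM with the drug, or about 35 to 93 reads.

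**Figure D2:**
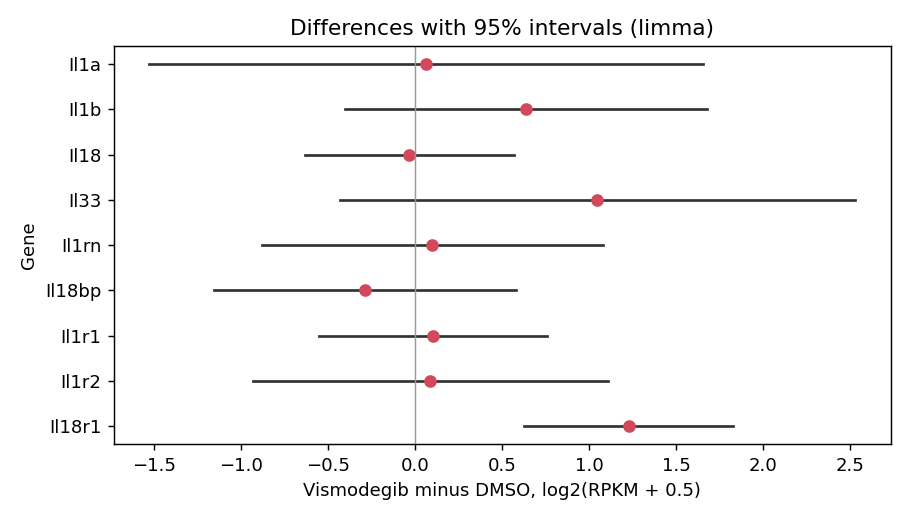
Vismodegib minus DMSO difference on the log2(RPKM + 0.5) scale for the 9 tested members (points) with 95% intervals from limma (lines). The interval of Il18r1, from 0.63 to 1.83, is the 1 interval that does not include 0, and these intervals are not adjusted for the number of genes.

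Over the 9 tested members, 7 differences were above 0 and 2 below, with a median of 0.10. Over all genes tested, 58.4% of differences were above 0 and the median was 0.05. With quantile scaling, 47.4% of all genes were above 0. Leaving out DMSO replicate 1 put the members' median at -0.16 and leaving out Vismodegib replicate 1 put it at -0.13. It was between 0.04 and 0.41 in the other alternatives. None of the 9 passed limma over all genes, where 0% of genes were called, and 1 had an unadjusted p under 0.05, against 2.25% of all genes.

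Vismodegib replicate 1 was the highest library for 26.9% and DMSO replicate 1 the lowest for 31.7% of all genes tested, and their median-ratio factors were the highest (1.17) and the lowest (0.878) of the 6. Among the 10 members, Vismodegib replicate 1 was the highest library for 4, Il1a, Il1b, Il33 and Il1r1, with or without median-ratio scaling. DMSO replicate 1 was the lowest for 5, Il18, Il1rn, Il18bp, Il1r2 and Il18r1, and for 3 of them (Il1rn, Il18bp and Il1r2) after that scaling. It was the second highest library for Il33 and Il1r1. DMSO replicate 3 was the highest for Il1rn, Il1r2 and Il1rl1, and for 14.4% of all genes. The closest patterns among the tested members belonged to Il18bp and Il1r2, with a root mean square difference of 0.31 between their mean-centred log2 values over the 6 libraries.

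**Figure D3:**
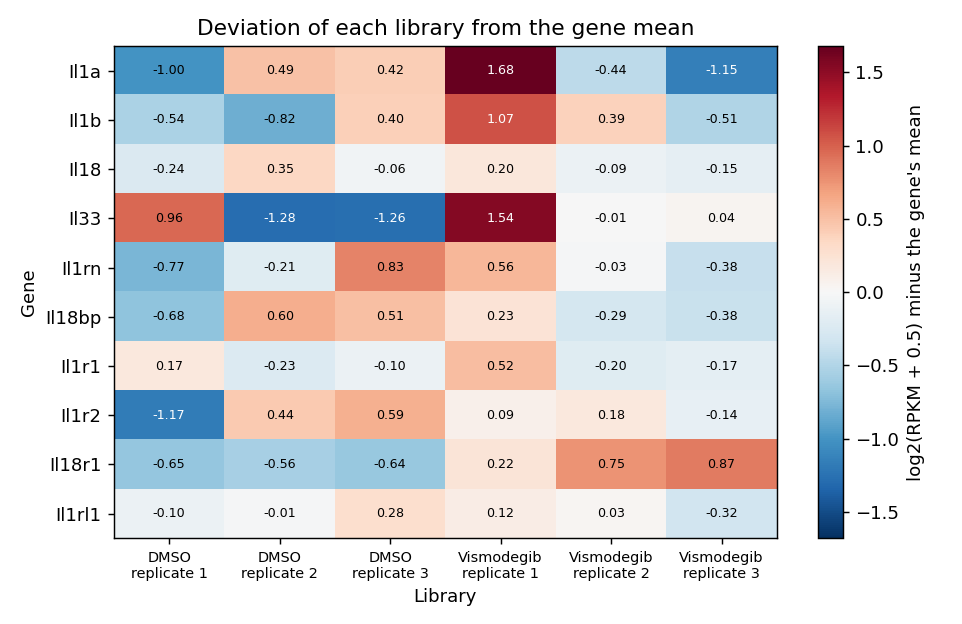
Deviation of log2(RPKM + 0.5) from the gene's mean over the 6 libraries, for each member (rows) and library (columns), red above and blue below the mean. Vismodegib replicate 1 is above the mean for all 10 members, as for 77.1% of all genes tested (8 members after median-ratio scaling), and Il18r1 is the row that is blue in all DMSO libraries and red in all Vismodegib libraries.

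Balance between agonist and inhibitor was described by ratios within each library, as log2 of the ratio of RPKM + 0.5. The ratio of Il1b to its antagonist Il1rn was 2.09, 1.25 and 1.44 in DMSO and 2.38, 2.28 and 1.74 in Vismodegib. Il1b exceeded Il1rn in every library, and the groups overlapped through DMSO replicate 1. Their means were 1.59 ± 0.442 and 2.13 ± 0.344. Il1a lay below Il1rn in all libraries but Vismodegib replicate 1, with ranges of -1.18 to -0.07 in DMSO and -1.53 to 0.35 in Vismodegib. Il18 and Il18bp were close to even, at -0.21 ± 0.516 and 0.05 ± 0.145. Il1r1 lay below its decoy Il1r2 in 5 of 6 libraries, the exception being DMSO replicate 1 at 0.45, with group means of -0.90 ± 1.17 and -0.89 ± 0.408. The last pair, of neighbouring receptor genes, holds no inhibitor. The ratio of Il18r1 to Il1rl1 was 0.69 to 1.07 in DMSO and 1.71 to 2.80 in Vismodegib. Il1rl1 was below the pseudocount of 0.5 RPKM in every library, so that this ratio mostly repeats the values of Il18r1.

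**Figure D4:**
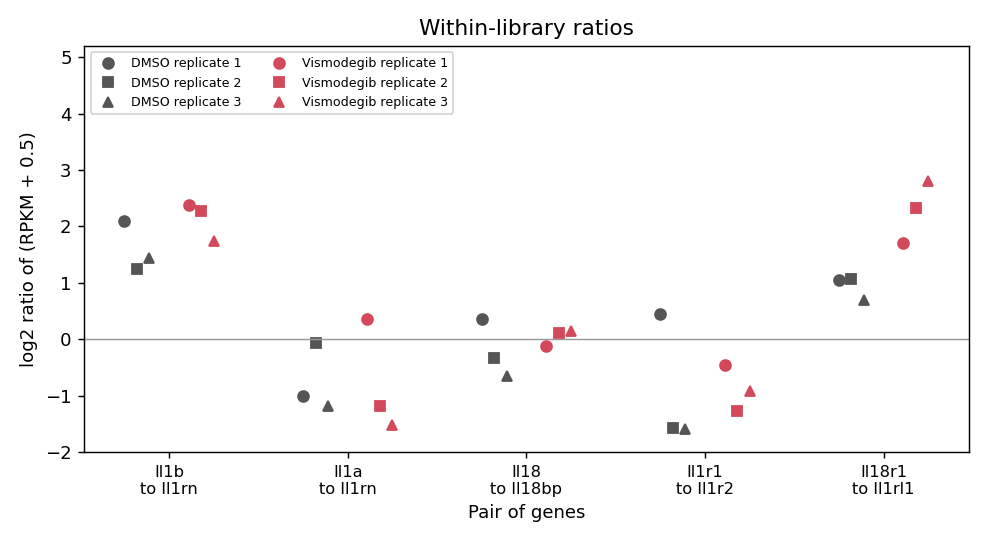
Within-library log2 ratios of RPKM + 0.5 for 5 pairs of members, in DMSO (grey) and Vismodegib (red) libraries, 1 symbol per library. In the 4 pairs of an agonist or receptor with its inhibitor or decoy the groups overlap. The pair of Il18r1 and Il1rl1 mostly repeats Il18r1.

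In the genes beside Il18r1 on chromosome 1 the groups overlapped. Il18rap, the accessory chain that Il18r1 needs for signalling, measured 1.77, 5.87 and 6.11 RPKM with vehicle and 2.69, 3.60 and 2.99 RPKM with the drug. Its groups overlapped, with the treated libraries inside the range of the controls, and its difference was -0.36 (SE 0.417, 95% interval -1.30 to 0.59). Il1rl2, the interleukin 36 receptor, is included here because it lies in the cluster. It was at 0.395 to 0.509 RPKM and was too low to be tested. Whether the difference of Il18r1 is distinct from that of its neighbours was not tested.

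**Figure D5:**
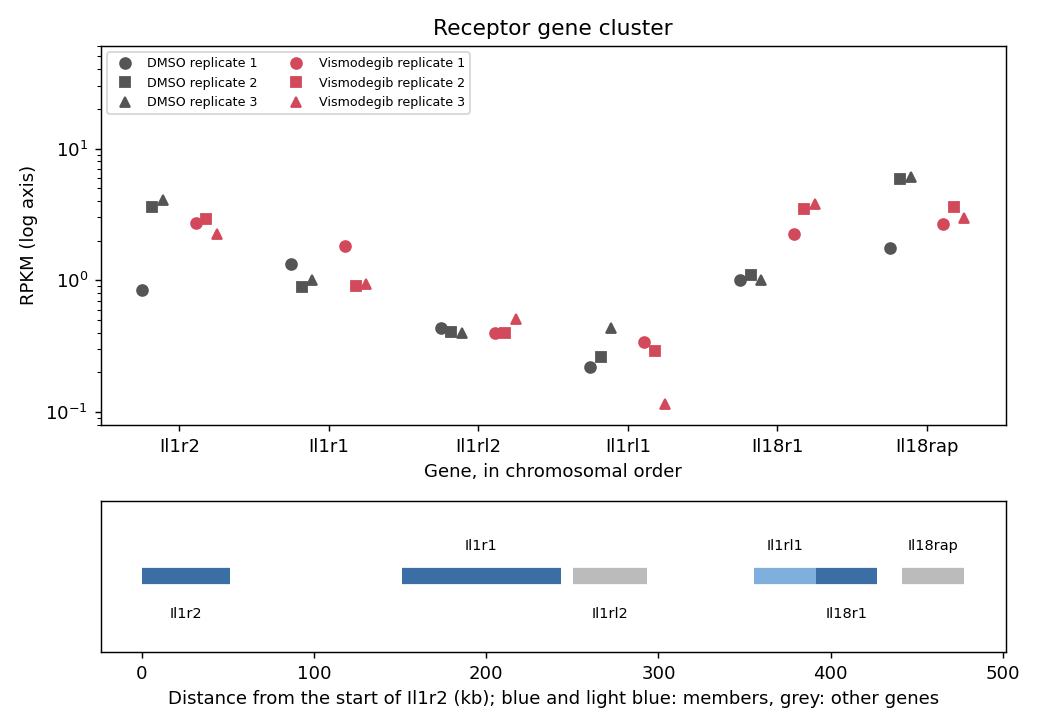
Top, RPKM (log axis) of the 6 protein-coding genes of the receptor cluster on chromosome 1 in each DMSO (grey) and Vismodegib (red) library. Bottom, their extents by distance from the start of Il1r2 in kb. Il18r1 is separated by group, while Il1rl1, just before it, and Il18rap, just after it, are not.

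The remaining pathway genes were grouped by role. They came to 93 list genes, of which 85 had a row and 63 were tested. None passed limma over all genes, 2 had an unadjusted p under 0.05, 33 differences were above 0 and 30 below, and the median was 0.01. Of 11 other ligands and receptors, 4 were tested and all 4 lay below 0, with a median of -0.17. Besides Il18rap they were Il1rap, the accessory chain shared by Il1r1 and Il1rl1 (-0.16), Sigirr, an inhibitory receptor of the family (-0.18), and Il1f9, which encodes interleukin 36 gamma (-0.04). Il1rap measured 0.324, 1.63 and 1.21 RPKM with vehicle and 1.30, 1.04 and 0.282 RPKM with the drug. Sigirr, at 11.8 to 31.3 RPKM, was expressed at far higher levels than the receptors it restrains.

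In signalling, 16 of 18 genes were tested, 8 above and 8 below 0, with a median of 0.05 and none without overlap. Nfkb1, a subunit of NF-kappaB, had the lowest difference, at -0.63 (SE 0.430), and Rela, its usual partner, was at -0.37, as was Chuk, a kinase that releases NF-kappaB. Tab3, an adaptor of the kinase Tak1, was at 0.40. In processing and release, 11 of 19 genes were tested, 9 above and 2 below 0, with a median of 0.24. Casp1, the protease that activates interleukin 1 beta and interleukin 18, measured 7.48, 5.69 and 5.13 RPKM with vehicle and 12.8, 9.46 and 5.81 RPKM with the drug, a difference of 0.53 (SE 0.325) with overlap. Nek7, which binds Nlrp3 to assemble the inflammasome, measured 7.11, 4.52 and 7.20 RPKM with vehicle and 12.7, 11.7 and 7.46 RPKM with the drug. Its groups did not overlap by a narrow gap, and its difference of 0.71 (SE 0.305) did not pass. A higher level without overlap was seen in 4.29% of all genes tested. Nlrp3, given here as the partner of Nek7, averaged 0.472 RPKM with vehicle and 0.487 RPKM with the drug and was too low to be tested. Aim2, a DNA sensor of inflammasomes, was at 0.73, and Prtn3, a neutrophil protease that can cut these cytokines, at 0.76.

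Genes that interleukin 1 induces through NF-kappaB lay on both sides of 0. Of 24, 22 were tested, 12 above and 10 below 0, with a median of 0.10 and none without overlap. Lcn2, which encodes an iron-scavenging protein of neutrophils and epithelia, measured 172, 23.8 and 104 RPKM with vehicle and 407, 140 and 99.8 RPKM with the drug, a difference of 1.23 (SE 0.745). It was highest in Vismodegib replicate 1, as were Il1b, Il1a and 26.9% of all genes tested. Its second highest library was DMSO replicate 1, which was low for Il1b (12.9 RPKM) and Il1a (1.07 RPKM). The neutrophil chemokine gene Cxcl5 was at 0.71, the growth factor gene Csf2 at 0.53, and Nfkbia, the feedback inhibitor of NF-kappaB, at -0.43. Of the 10 genes of the interleukin 12 and interferon gamma axis, 5 were tested, 3 above and 2 below 0, with a median of 0.01. Il12rb1, a chain of the interleukin 12 receptor, was at 0.01, the chemokine gene Xcl1 at 0.48, Gzmb, a lytic granule protease, at -0.55, and Eomes, a transcription factor of NK cells, at -0.08. Of 11 type 2 genes linked to interleukin 33, 5 were tested, 1 above and 4 below 0, with a median of -0.43. Ccl24, which attracts eosinophils, measured 16.9, 32.1 and 25.5 RPKM with vehicle and 12.6, 7.90 and 6.76 RPKM with the drug, without overlap, and did not pass either. A lower level without overlap was seen in 0.745% of all genes tested. Gata3, which tumour epithelium also makes, was at -0.43, Arg1 at -0.55 and Ccl17 at 0.34.

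Marker lists for cells that could make or receive these cytokines were summed per library. All 12 T cell markers had a row, and their sum was 22.2 to 38.6 RPKM in DMSO and 23.8 to 30.1 RPKM in Vismodegib. The 7 NK cell markers summed to 38.5 to 110 and 44.6 to 60.4 RPKM, and the 10 mast cell and basophil markers to 11.2 to 29.7 and 12.8 to 53.1 RPKM, with Fcer1a and Ms4a2 at 0 in at least 1 library. These 3 lists cover cells known to carry Il18r1, and the sums overlapped between the groups. The NK sum is carried largely by Gzma, at 16.8 to 91.3 RPKM, and Nkg7, at 9.88 to 18.3 RPKM. Gene by gene, the 3 tested NK markers, Gzma, Nkg7 and Prf1, lay below 0. Prf1 was lower without overlap, at 2.28 to 3.45 RPKM in DMSO and 1.44 to 1.78 RPKM in Vismodegib. Among all genes tested, 0.745% were lower without overlap. The remaining NK markers were too low to be tested, and their groups overlapped. In DMSO and Vismodegib, Ncr1 ran from 0.080 to 0.130 and from 0.106 to 0.390 RPKM, and Klrb1c from 0.029 to 0.126 and from 0.055 to 0.140 RPKM. Klrk1 ran from 0.248 to 0.502 and from 0.297 to 0.478 RPKM, and Klre1 from 0.134 to 0.352 and from 0.121 to 0.227 RPKM. Of the T cell markers, 2 of 8 tested lay above 0 (median -0.08), and of the mast cell and basophil markers 4 of 7 (median 0.26).

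Of the marker sums, that of fibroblasts was higher with Vismodegib without overlap, while those of epithelium, keratinocytes, fat and muscle overlapped. The 8 fibroblast markers summed to 63.6 to 80.4 RPKM in DMSO and 81.1 to 192 RPKM in Vismodegib, none was at 0, and all 7 tested lay above 0 with a median of 0.85, 3 of them without overlap. Over all genes tested, 58.4% of differences lay above 0 and 4.29% of genes were higher without overlap. Of the 9 epithelial markers, 7 lay above 0 with a median of 0.70. Krt7, Cldn4 and Elf3 were higher without overlap, with Elf3 at 8.34 to 34.4 RPKM in DMSO and 43.7 to 72.9 RPKM in Vismodegib, while Krt8 and Krt18, at -0.23 and -0.06, lay below 0. All tested markers of skin keratinocytes (9) and fat (5) lay above 0, with medians of 0.88 and 1.42, and so did all 7 of skeletal muscle, at 0.51 to 2.28. Some of these markers reached the required mean mostly through treated libraries, which favours a sign above 0. Krtdap, Krt1 and Sbsn were at 27.2, 4.26 and 2.95 RPKM in Vismodegib replicate 3 and at most 1.97, 0.263 and 0.439 RPKM in DMSO. Adipoq, Cidec and Retn were at 2.54 to 5.93 RPKM in Vismodegib replicates 1 and 2. In Vismodegib replicate 3 they were at 0, 0.260 and 0.033 RPKM. None of these markers passed limma over all genes. The part of these tissues in the Il18r1 values was not tested. Sequencing depth also did not overlap between the groups, and its part was not tested either.

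The sum of 11 neutrophil markers was 32.1, 81.5 and 228 RPKM in DMSO and 132, 113 and 25.6 RPKM in Vismodegib, with Ly6g, Mmp8, Ngp and Camp at 0 in at least 1 library. The 3 libraries highest in this sum were also the 3 highest in Il1b and in Il1rn. In these 3 libraries the sum is carried largely by S100a8, at 24.5 to 61.2 RPKM, and S100a9, at 63.9 to 129 RPKM. The same 3 libraries were the highest in S100a8, S100a9, Cxcr2, Mmp8, Ngp and Mpo. They were not the 3 highest in Csf3r, Ly6g, Camp, Ltf and Retnlg. Of the 8 neutrophil markers tested, 1 lay above 0 and 7 below. The 12 macrophage and monocyte markers summed to 1412 to 2373 RPKM in DMSO and 889 to 2876 RPKM in Vismodegib, and none was at 0. This sum is carried largely by C1qa, at 606 to 2284 RPKM. All 12 were tested, with 6 above and 6 below 0. Cd14 was higher without overlap, as were 4.29% of all genes tested, at 9.77 to 13.9 RPKM in DMSO and 15.2 to 36.6 RPKM in Vismodegib. Endothelial markers, 6 in all, summed to 177, 32.7 and 29.7 RPKM in DMSO and to 112, 46.5 and 81.6 RPKM in Vismodegib, so that the replicates 1 in which Il33 and Il1r1 were highest were also the highest here. All 4 endothelial markers tested lay above 0. The 11 skin keratinocyte markers ran from 70.7 to 157 and from 143 to 252 RPKM, with Krt1, Krtdap, Lor, Flg and Dsg1a at 0 in at least 1 library. Adipocyte markers (7) ran from 7.55 to 15.9 and from 10.7 to 97.4 RPKM, with Adipoq and Lep at 0 in at least 1 library. Skeletal muscle markers (7) ran from 9.54 to 138 and from 74.4 to 146 RPKM, with Pvalb at 0 in at least 1 library. The part of these cell types in the members' values was not tested.

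For the 7 members with an SD of at least 0.5 over the 6 log2 values, the genes with the most similar pattern were found by the root mean square difference between mean-centred log2 values among the genes tested. For Il18r1 they were Gpha2, Akr1c18 and Rpl39l, at 0.17, 0.26 and 0.27. Gpha2, a glycoprotein hormone subunit, measured 1.73, 1.90 and 1.51 RPKM with vehicle and 2.99, 6.78 and 5.51 RPKM with the drug. For Il1b they were Cd209d, Clip4 and App (0.18, 0.18 and 0.22), and for Il1a Iglc2, Ccl6 and Nptx1 (0.35, 0.35 and 0.36), where Ccl6 is a myeloid chemokine. For Il33 they were Qsox1, Gm9747 and Gsta4 (0.19, 0.30 and 0.38). For Il1rn they were Cdkn1a, Dnajc21 and Msln (0.17, 0.17 and 0.18), for Il1r2 Plp2, Sult2b1 and Mastl (0.13, 0.14 and 0.16), and for Il18bp Cxxc1, Sertad2 and Sirt6 (0.06, 0.07 and 0.08). These likenesses rest on 6 libraries and carry no test.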

How the data were processed

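RNA was measured in 3 DMSO and 3 Vismodegib tumour libraries, grouped by their titles. The authors deposited RPKM values for 23381 genes. The build was mm10 and the tools named were Partek, SAMtools, HISAT2, STAR, cutadapt and bcl2fastq (version 2.17), per the submitters' processing notes. Annotation, use of strand and counting of reads or pairs: not given in the sources used here. Library totals were recovered from value steps of 6990 genes with 1 transcript in GENCODE M21. With these totals, 83.6% to 85.4% of values up to 20 reads were whole within 0.02 reads. A total too high by a whole-number factor would not be seen. Read numbers behind a value use the longest transcript and cover counting error only.

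The 11818 genes averaging 0.5 RPKM or more were fitted by limma 3.58.1 (R 4.3.3) as log2(RPKM + 0.5) (eBayes with trend, group as the only term, two-sided, Benjamini-Hochberg over all genes). This scale understates changes of low genes. The members and lists were chosen with earlier results of these data known. Named genes were the members, up to 4 tested genes with the smallest unadjusted p per pathway list, and the 3 nearest patterns of each member with an SD of at least 0.5. Of 193 list genes, 185 had a row, 2 through another RefSeq symbol (Il1f9 and Il1f5). The fit was also run on simulated data with the same noise in every library, which these libraries may not share. Its outcome is not given and no result here rests on it. Alternatives covered the pseudocount, filter, scaling, variance model, library weights, replicate block and each library left out. Promoter windows are RefSeq's, GRCm38.p6.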

Additional observations from a re-analysis of the deposited data

How the results depend on the processing

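Counts of genes past the threshold were 0 in the fit described and in most alternatives. Library weights gave 420 genes, 306 higher and 114 lower, with 1 member (Il18r1) and 3 pathway genes (Casp1, Ccl24 and Nos2, the last named after its value was seen). These weights were 7.28 for DMSO replicate 3 and 0.32 for each other DMSO library. With the replicate number as a block, 1 gene passed (Fam25c, not a member; adjusted p = 0.0418 by limma) and 0 members. Leaving out each library in turn gave 0 to 19 genes, with 19 without DMSO replicate 1 (11 higher, 8 lower), and 0 members and 0 pathway genes in each case. The labels do not state whether replicate numbers pair the samples, and correlations with 3 libraries a group cannot settle it. Deviations of same-numbered libraries from their group means correlated across genes at 0.003, 0.04 and -0.30, and DMSO replicate 3 correlated best with Vismodegib replicate 2 (0.30).

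Differences of Il1b, Il33, Il18bp and Il18r1 kept their sign in all 16 alternatives. Those of Il1a, Il18, Il1rn, Il1r1 and Il1r2 changed sign in 3, 4, 3, 1 and 2 of them. With library weights Il1rn was at -0.61. A pseudocount of 0.1 put Il18r1 at 1.49 and a pseudocount of 1 at 1.01. With 3 libraries a group, intervals of the members were up to 3.18 wide on the log2 scale. Il1rl1 was too low to be tested.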

Other observations

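The transcripts of Il18r1 and Il18rap in whole tumours stood in different ratios in the groups. The log2 ratio of Il18r1 to Il18rap ran from -2.13 to -0.60 in DMSO and from -0.22 to 0.30 in Vismodegib, without overlap. Il18rap was the more abundant transcript in all 3 vehicle libraries, and the transcripts were close to even in the treated ones. The groups of Il18r1 did not overlap while those of Il18rap did. The difference of this ratio between the groups was 1.58 and in large part repeats that of Il18r1 (1.23), beside -0.36 for Il18rap. Within DMSO the spread of the ratio lay mostly in Il18rap (1.77 to 6.11 RPKM), as Il18r1 was nearly level (0.998 to 1.10 RPKM). The proportion of the receptor chains in any cell was not measured. This pair was picked after its values were seen and was not tested.

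Ccl20, an interleukin 1 target that attracts lymphocytes, was listed at 0 in all 3 DMSO libraries and at 0.152, 0.066 and 0.012 RPKM in Vismodegib. Ctsg, a neutrophil protease, was listed at 0 in all 3 Vismodegib libraries and at 0.026, 0.278 and 0.048 RPKM in DMSO. Both were picked after their values were seen and lie too low to be tested.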
